A study of Mus musculus with 4 samples.

Results

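CD4 T cells were the subject here: T lymphocytes that carry the CD4 coreceptor, recovered from the stroma of the mouse submandibular gland by 10x single-cell RNA sequencing. A barcode was kept when it had at least 300 genes and at most 10% mitochondrial UMIs (unique molecular identifiers, each standing for 1 captured RNA molecule). A kept cell was a member when its summed Cd3e, Cd3d, Cd3g and Trac count was at least 2, it had at least 1 Cd4 UMI and no Cd8a or Cd8b1 UMI, it had no UMI of Ncr1, Cd79a or C1qa, and it had at most 1 UMI of Pecam1 and Cdh5 together. The rule found 114 members among 36685 retained cells. There were 41 members in deligated library 1, 41 in deligated library 2, 14 in homeostatic library 1 and 18 in homeostatic library 2.

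All 4 libraries came from female C57BL6/J mice, and in all of them magnetic beads had been used to deplete EpCAM-bearing epithelium and Ter119-bearing erythrocytes, followed by dead cell removal. In the deligated mice, aged 14 weeks, a metal clip had closed the main ducts for 14 days and had then been off for 5 days. The homeostatic mice, aged 12 weeks, had no surgery and no other treatment. The file headers name Cell Ranger 6.0.1 for the deligated and 7.0.0 for the homeostatic libraries, so that software version and age go with the group and their effects cannot be told apart from that of the surgery. The labels name the submandibular gland, while the protocol speaks of submandibular and sublingual glands and does not say how many animals a library holds, so p-values measure the spread between these libraries only.

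CD4 T cells recognise peptides on MHC class II molecules and mainly act on other cells, through surface ligands such as CD40 ligand and through secreted cytokines. Their subsets are told apart by transcription factors and cytokines: T-bet and interferon gamma in T helper 1 cells, GATA3 and interleukin 4 in T helper 2 cells, interleukin 17 in T helper 17 cells, FOXP3 in regulatory cells. T cells that stay in tissues such as salivary gland carry CXCR6 and CD69, and recirculating cells carry CCR7 and S1PR1. CD8 T cells, which recognise MHC class I and kill target cells, were the nearest comparison within the same libraries.

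The members carried the marker genes of their label. Cd3e, a signalling chain of the T cell receptor complex, was at 804, 664, 563 and 398 CPM in deligated 1, deligated 2, homeostatic 1 and homeostatic 2, the order used for all values (CPM, the UMIs of a gene per 1000000 UMIs summed over the cells of a class in a library). Trac, the constant region of the receptor alpha chain, was at 788, 740, 563 and 500 CPM. Cd4 (GRCm38, chr6:124864692-124888221, minus strand) contributed 56, 68, 29 and 34 UMIs. The members were chosen by the UMI counts of these and the other rule genes, which are given as a description. Trbc2, a beta chain constant region that the rule did not use, had a UMI in 113 of 114 members.

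The gate was narrow for Cd4 and wide for the receptor genes. Of the members, 69 had exactly 1 Cd4 UMI, and 928 T cells with neither Cd4 nor Cd8 lay just outside. No member had a receptor sum of 2, and no cell lay outside with a sum of 1. The CD8 condition removed 2 cells with 1 UMI and 5 cells with more, the Ncr1, Cd79a and C1qa condition removed 11, and the vessel condition removed 23, while 24 members had 1 Pecam1 or Cdh5 UMI.

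RNA of other cell types was uneven between libraries. Members with 3 or more UMIs over the marker lists of fibroblasts, mural, endothelial, NK, macrophage and dendritic, or epithelial cells numbered 1, 12, 2 and 2, called mixed members here. Fibroblast markers summed to 67.4, 4316, 0 and 0 CPM, with all 6 genes of the list detected and 483 of the 787 UMIs of deligated 2 in 1 cell. NK markers, detected for 8 of 8 genes, summed to 25.9, 154, 17.1 and 551 CPM. In CD8 T cells they summed to 392.5, 1236, 808.5 and 977.7 CPM. The gamma-delta and invariant T cell list summed to 15.6, 43.9, 0 and 30.6 CPM in members. In CD8 T cells that list summed to 215, 204, 156 and 177 CPM. The defining B cell genes Ms4a1 and Cd79b and the macrophage genes C1qc, Lyz2 and Csf1r were at 0 in all members, as were the gamma-delta gene Tcrg-C1 and the invariant T cell gene Zbtb16. No member barcode occurred in another library.

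The members held 192819, 182344, 58617 and 98002 UMIs, out of library totals between 35662241 and 53898793. A member had a median of 4237.5 UMIs (1782 to 13843) and 1602.5 genes, against 4970 UMIs for a CD8 T cell. Mitochondrial UMIs had a median of 2.51% in members.

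CD4 T cells made up a larger share of the deligated libraries. They were 0.907% of retained cells in deligated 1 (exact 95% interval 0.652 to 1.23%), 0.489% in deligated 2 (0.351 to 0.663%), 0.120% in homeostatic 1 (0.0654 to 0.200%) and 0.149% in homeostatic 2 (0.0884 to 0.236%). The intervals cover counting error only. Both deligated shares lay above both homeostatic ones, with means of 0.698 ± 0.296% and 0.134 ± 0.021% (SD, n = 2 libraries each) and a ratio of 5.19. In edgeR's quasi-likelihood test on cell numbers the log2 ratio was 2.34 (SE 0.41, adjusted p = 0.0114 over 9 cell classes).

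Other T cells rose too, and the CD4 fraction of T cells did not pass a test. CD8 T cells numbered 206, 157, 49 and 48, and their share and that of T cells with neither coreceptor each rose by 2.96 on the log2 scale (edgeR adjusted p = 0.0114 and 0.00163). Within T cells the members were 7.66, 6.24, 9.52 and 11%, with both homeostatic values above both deligated ones (log2 -0.57, SE 0.36, edgeR adjusted p = 0.475). The number of CD8 T cells per member was 5.02, 3.83, 3.50 and 2.67. Both this number and the CD4 fraction of T cells changed with depth. With cells thinned to equal depth before the rule was applied, the number was 10.4, 8.92, 7.2 and 7.5. The members were then 2.68, 1.62, 2.89 and 2.26% of T cells, so that the groups overlapped. How many CD4 T cells lie among the T cells with neither coreceptor was not tested. Among immune cells, without thinning, the members were 3.23, 1.90, 0.674 and 0.850% (log2 1.73, edgeR adjusted p = 0.0192). Macrophages numbered 43, 134, 1241 and 1256 in that denominator, and their share of immune cells was lower in deligated libraries by 3.62 on the log2 scale (edgeR adjusted p = 0.00256). Among immune cells other than macrophages the members were 3.34, 2.02, 1.67 and 2.09%, so that the groups overlapped and the difference did not pass (log2 0.50, SE 0.38, edgeR adjusted p = 0.331). The denominator of all cells holds 4877 and 5208 barcodes of no named class in the homeostatic libraries, with median depths of 1127 and 1087.5 UMIs, against 840 and 1861 such barcodes at 6074.5 and 5245 UMIs in the deligated ones.

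**Figure D1:**
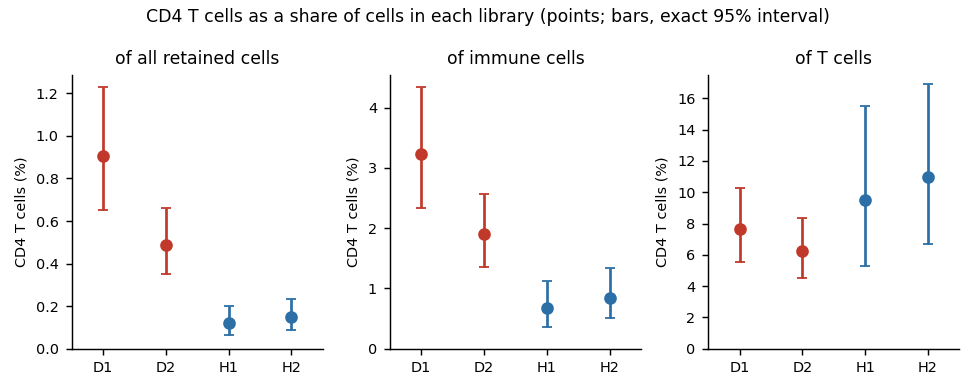
Share of CD4 T cells among all retained cells, immune cells and T cells in each library, in percent (red deligated, blue homeostatic, bars exact 95% intervals). Both deligated libraries lie above both homeostatic ones for the first 2 denominators, and below them among T cells (7.66 and 6.24% against 9.52 and 11%).

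CD4 T cells differed from CD8 T cells of the same libraries in helper and cytotoxic genes. Cd40lg, Icos and Cd28 were among the higher genes, 11 of 12 cytotoxic effector genes were lower, and 19 of the 22 genes of the T cell receptor list did not pass the test. Of 4318 genes tested, with the library as a block and the rule genes left out, 120 or 2.78% passed an adjusted p of 0.05 in edgeR's quasi-likelihood test. Of these 51 were higher in CD4 T cells (1.18% of genes tested) and 69 lower (1.60%). Leaving out deligated 1 reduced the calls to 71. Of the 63 called genes that stand in a list or in the named set, 40 kept their call whichever library was left out, or fell below the count filter.

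Cd40lg (GRCm38, chrX:57212143-57224042), the ligand with which helper cells activate B cells and antigen-presenting cells, was at 233, 154, 307 and 174 CPM in CD4 T cells. In CD8 T cells of the same libraries it was at 14.4, 18.7, 48.6 and 22.6 CPM. The CD4 level was above the CD8 level in 4 of 4 libraries, by 3.20 on the log2 scale (SE 0.27, edgeR adjusted p = 2.69e-07). Members with a Cd40lg UMI were 64 of 114, or 56.1% (exact interval 46.5 to 65.4%), against 6.74% of CD8 T cells and 0.00693% of 14429 endothelial cells, which had a median depth of 4251 UMIs. With every cell thinned to 1000 UMIs the shares were 16.7% of members and 3.48% of CD8 T cells. T cells with neither coreceptor lay between, at 24.8% before and 7.46% after thinning.

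Costimulatory receptors followed the same direction. Icos, a receptor of helper cells, was at 192, 115, 205 and 91.8 CPM against 42.4, 35.1, 83.3 and 18.8 in CD8 T cells (log2 1.80, SE 0.25, edgeR adjusted p = 0.000201). Cd28, the main costimulatory receptor of T cells, was at 306, 291, 324 and 327 CPM against 163, 151, 153 and 102 (log2 1.05, SE 0.19, edgeR adjusted p = 0.00203). Tnfrsf4, which encodes OX40, was at 67.4, 230, 0 and 20.4 CPM against 1.81, 3.51, 0 and 3.76. Tnfrsf4 was thus higher in the 3 libraries that had a UMI, by 5.14 in the fit (SE 0.61, edgeR adjusted p = 4.05e-05), and fell below the filter on low counts without either deligated library.

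Izumo1r, the folate receptor 4 gene known from regulatory and anergic CD4 cells, was steady across libraries at 67.4, 65.8, 68.2 and 71.4 CPM. Its CD8 values were 3.61, 2.34, 13.9 and 3.76 CPM (log2 3.76, SE 0.56, edgeR adjusted p = 0.000365). Maf, a transcription factor of helper subsets, was at 384, 378, 256 and 143 CPM against 68.6, 58.6, 17.4 and 37.6 (log2 2.56, SE 0.22, edgeR adjusted p = 2.69e-07). The groups of values do not overlap for either gene. Il6ra, the interleukin 6 receptor, had a log2 difference of 2.90, and St6gal1, a sialyltransferase, one of 2.34. Tnfsf11, which encodes RANKL, was higher by 2.82 (edgeR adjusted p = 0.0107), a call that did not pass without deligated 1 (0.104) or homeostatic 1 (0.0527). Slamf1, a lymphocyte adhesion receptor, was higher by 2.16 and did not pass without deligated 1 (edgeR adjusted p = 0.0821). Gna15, a G protein subunit, was higher by 2.09 and did not pass without deligated 1 (0.08) or deligated 2 (0.165).

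**Figure D2:**
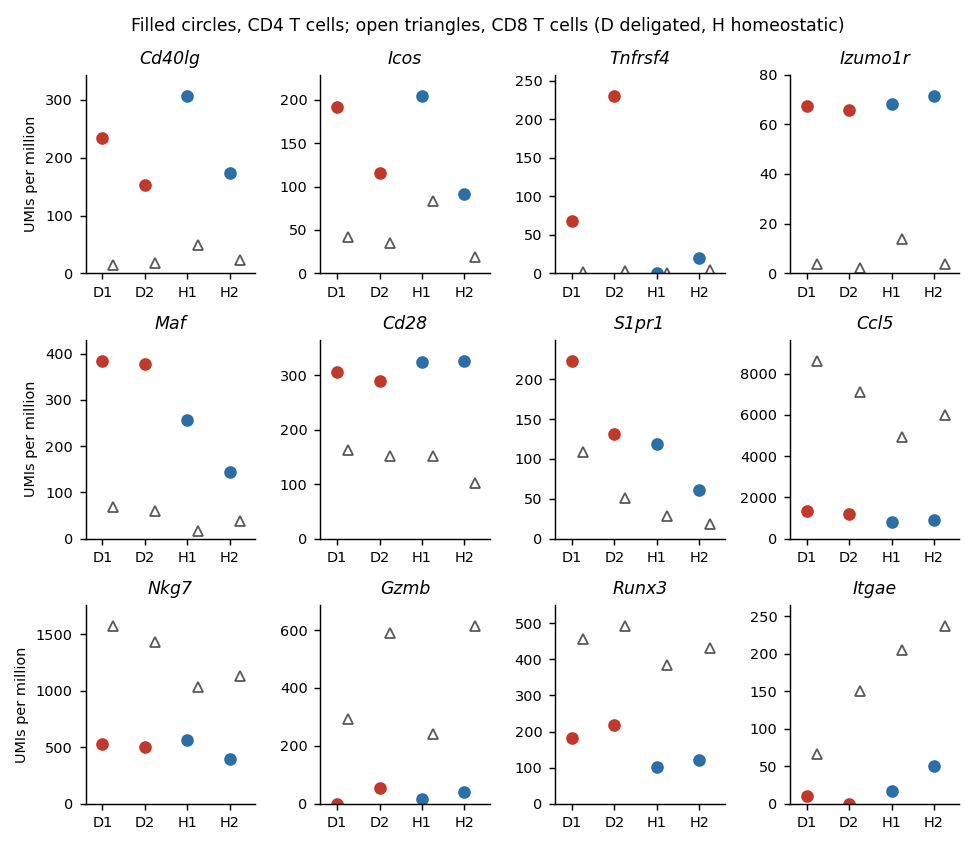
UMIs per 1000000 (CPM) of 12 genes in each library, on linear axes from 0: filled circles are CD4 T cells (red deligated, blue homeostatic) and open triangles CD8 T cells of the same library. Cd40lg, Icos, Izumo1r, Maf, Cd28 and S1pr1 lie higher in CD4 T cells in all 4 libraries, Tnfrsf4 does so in 3 with both classes at 0 in homeostatic 1, and Ccl5, Nkg7, Gzmb, Runx3 and Itgae lie lower.

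The lists of helper subsets held few called genes each. Of 9 tested regulatory T cell genes 4 were higher (Tnfrsf4, Tnfrsf18, Capg and Izumo1r) and none lower, with a median log2 difference of 1.00 against 0.005 over all genes tested. Of 8 follicular helper genes 2 were higher (Icos and Cd40lg) and none lower, with a median of 1.16. Of 10 T helper 1 genes 1 was higher (Tnf) and 2 were lower, Runx3 among them, with a median of -0.20. The T helper 17 list had 1 of 4 higher (Maf), and the T helper 2 list had 0 of 2 called.

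Few genes of the T cell receptor list differed. Of its 22 genes 3 were higher (Cd5, Cd28 and Cd247) and none lower, with a median log2 difference of 0.00. Trbc1 and Trbc2, the receptor beta constant regions, had differences of -0.03 (edgeR adjusted p = 0.994) and 0.28 (0.53). Cd5, an inhibitory coreceptor, was at 150, 115, 205 and 235 CPM against 51.4, 50.4, 65.9 and 71.5 (log2 1.45, SE 0.22, edgeR adjusted p = 0.000393). Cd247, the zeta chain, was higher by 0.71 (adjusted p = 0.0309) and did not pass without deligated 1 (0.162), deligated 2 (0.0966) or homeostatic 1 (0.0811).

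The cytotoxic programme was lower. Of 12 cytotoxic effector genes 11 were lower in CD4 T cells and none higher, with a median log2 difference of -2.60. Gzma (GRCm38, chr13:113093825-113100981), which encodes granzyme A, had 0, 1, 0 and 0 UMIs in members and 365, 243, 5 and 242 in CD8 T cells. Its level per UMI of the class was 181 times higher in CD8 T cells, with a counting interval of 32.3 to 7.15e+03. Gzmb, granzyme B, was at 0, 54.8, 17.1 and 40.8 CPM against 294, 590, 239 and 613 (log2 -4.06, SE 0.32, edgeR adjusted p = 1.11e-07). A Gzmb UMI was found in 0, 19.5, 7.14 and 5.56% of members and in 4.98, 17.7, 4.41 and 4.08% of endothelial cells, which do not make granzymes. In deligated 2, which held 8 of the 10 members with a Gzmb UMI, the endothelial share lay within the exact interval of the members' share (8.82 to 34.9%). How much of the members' Gzmb RNA there is background was not tested.

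Perforin (Prf1), the pore-forming protein, had 0, 2, 0 and 0 UMIs and was 16.2 times higher in CD8 T cells (interval 4.4 to 135). Gzmc and Gzmk, further granzymes, were lower in CD4 T cells by 3.89 and 3.39 on the log2 scale. Nkg7, a cytotoxic granule protein, stayed well detected, at 529, 505, 563 and 398 CPM against 1572, 1428, 1037 and 1132 (log2 -1.45, SE 0.14, edgeR adjusted p = 2.16e-06). Nkg7 had a UMI in 57.9% of members, 93.5% of CD8 T cells and 9.09% of endothelial cells. After thinning the shares of members and CD8 T cells were 28.9 and 68.7%.

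Chemokine genes of effector cells were lower as well. Ccl5, which draws in effector T cells and monocytes, was at 1322, 1168, 819 and 908 CPM in CD4 T cells and at 8610, 7108, 4924 and 5983 in CD8 T cells (log2 -2.70, SE 0.12, edgeR adjusted p = 2.65e-11). A Ccl5 UMI was present in 50.0% of members (exact interval 40.5 to 59.5%), 87.4% of CD8 T cells and 15.2% of endothelial cells. Ccl4, an inflammatory chemokine, was lower by 3.95 and Xcl1, which attracts cross-presenting dendritic cells, by 2.00.

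Some factors and receptors of CD8 and NK cells were lower as well. Of 5 tested NK markers 4 were lower, and of 2 tested gamma-delta and invariant markers 1 was (Tcrg-C2). How far NK-like, gamma-delta or mixed cells within the CD8 class carry the lower genes was not tested. Runx3, which silences Cd4 in the CD8 lineage, was at 182, 219, 102 and 122 CPM against 458, 492, 385 and 433 (log2 -1.48, edgeR adjusted p = 3.17e-05). Eomes, a T-box factor, had 1 UMI in members and was 29 times higher in CD8 T cells (interval 5.11 to 1.15e+03). Cd160, an MHC class I binding receptor, had 2 UMIs and was 34.7 times higher in CD8 T cells (9.52 to 287). Outside these groups, Dscam and Gm44174 had no UMI in members and were at least 6.76-fold and 7.12-fold higher in CD8 T cells, against a floor of 3 counts. For Dscam the DESeq2 adjusted p was 0.782. Wdr95 had 1 UMI in members and did not pass without deligated 1 (edgeR adjusted p = 0.0502).

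Salivary secretory RNA was present in this comparison. Pip and Scgb1b27, products of salivary acinar and duct cells, were called higher in CD4 T cells by 2.23 and 2.11. Neither passed without homeostatic 2 (edgeR adjusted p = 0.83 and 0.155). The same held with mixed cells of both classes left out (edgeR adjusted p = 0.963 and 0.498). That setting kept 174, 82, 32 and 25 CD8 T cells. Scgb2b26, Scgb2b27, Car6 and Mucl2, further secretory genes, were also called higher. They did not pass without homeostatic 2 or with mixed cells of both classes left out. With DESeq2 none of these secretory genes passed. All of them count among the 51 genes higher in CD4 T cells. In homeostatic 2, 342 of the 470 UMIs of the secretory list, which holds Pip but not Scgb1b27, lay in 1 member. All 14 and 18 homeostatic members had a UMI of the list.

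Genes of tissue residency and of recirculation both separated the classes in part. Itgae, the CD103 integrin chain that binds epithelial E-cadherin, was at 10.4, 0, 17.1 and 51.0 CPM in CD4 T cells. In CD8 T cells Itgae was at 65.9, 150, 205 and 237 CPM (log2 -3.24, SE 0.41, edgeR adjusted p = 6.67e-05). Itgae UMIs were in 4.88, 0, 7.14 and 22.2% of members and in 3.13, 7.83, 3.32 and 3.37% of endothelial cells, so that only in homeostatic 2 did the exact interval of the members' share (6.41 to 47.6%) lie above the endothelial share. After thinning 1 of 114 members had an Itgae UMI. Itga1, a collagen-binding integrin chain, was lower by 1.23. S1pr1, the egress receptor, was at 223, 132, 119 and 61.2 CPM against 108, 51.5, 27.8 and 18.8 (log2 1.22, SE 0.23, edgeR adjusted p = 0.00362). Cxcr6, Cd69 and Rgs1 did not pass, with log2 differences of -0.34, 0.04 and 0.06. Of 13 residency genes 1 was higher and 3 were lower, and of 14 recirculation genes 2 were higher and none lower.

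Among themselves the members differed in residency and recirculation genes. A Cxcr6 UMI was found in 69 of 114 members, or 60.5% (exact interval 50.9 to 69.6%), against 3.90% of endothelial cells, and in 34.2% after thinning. Cd69 had a UMI in 68.4% of members, Rgs1 in 64.0% and the chemokine receptor Cxcr3 in 55.3%. Ccr7 was seen in 11.4%. These shares describe cells of 4 libraries together and carry no test.

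Ccr7 had a UMI in 13 members, 9 of them in deligated 1, and all 13 also had a UMI of Klf2, the factor that drives S1pr1, against 44 of the other 101 (43.6%). S1pr1 was found in 9 of the 13 (69.2%) and in 26.7% of the others. Cxcr6 was found in 1 of the 13 (7.69%) and in 67.3% of the others, and Ccl5 in 2 of the 13 (15.4%) and in 54.5%. Members with Cxcr6 carried Nkg7 in 73.9% and Ccl5 in 62.3% of cells, against 33.3% and 31.1% of the 45 members without. Cd40lg was found in 58.0% of members with Cxcr6 and 53.3% of those without. Klf2 was found in 34.8% of members with Cxcr6 and in 73.3% of those without. Some other pairs were less apart. S1pr1 was found in 20 of the 69 members with Cxcr6 and 16 of the 45 without. Cd69 was found in 69.2% of members with Ccr7 and 68.3% of the others. All these pairs were counted over the pooled libraries and before thinning. How far differences in depth or between libraries add to them was not tested.

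**Figure D3:**
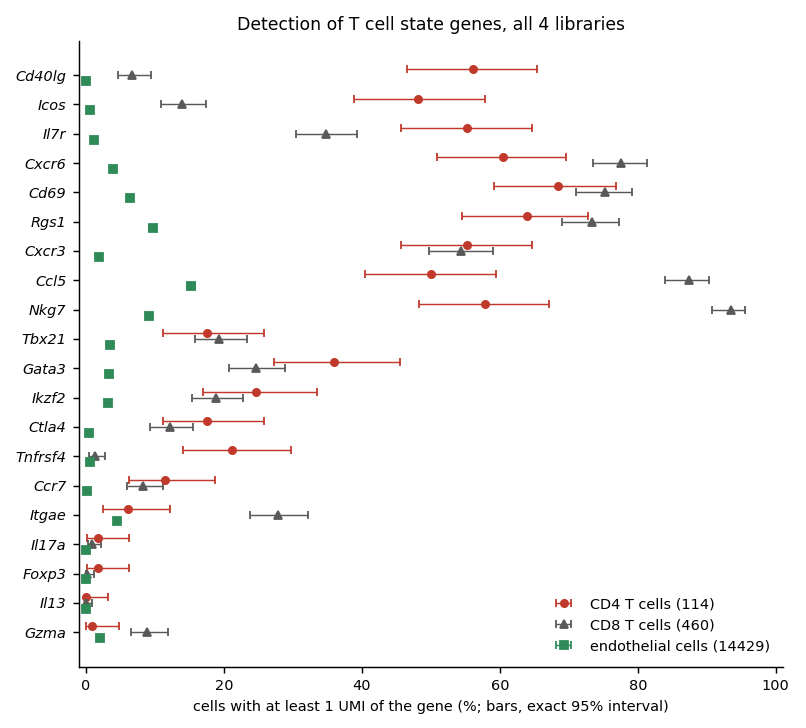
Percent of the 114 CD4 T cells (red circles), 460 CD8 T cells (grey triangles) and 14429 endothelial cells (green squares) of all 4 libraries with at least 1 UMI of each gene, before thinning, with exact 95% intervals as bars. Cd40lg is at 56.1% in CD4 T cells and 6.74% in CD8 T cells, and Ccl5 is at 50.0% in CD4 T cells and 87.4% in CD8 T cells.

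Some defining genes of helper subsets were rare, Foxp3, Il17a and Il4 among them, while Tbx21, Ifng and Gata3 were found more widely. Foxp3 (GRCm38, chrX:7573644-7595245) had a UMI in 2 of 114 members, 1 in each deligated library, or 1.75% (exact interval 0.213 to 6.19%). Both homeostatic libraries had 0, with 14 and 18 members. The member of deligated 1 held 9 Foxp3, 17 Ikzf2, 4 Ctla4, 3 Il2ra, 4 Tnfrsf18 and 5 Izumo1r UMIs among 4684, a set of genes that mark regulatory T cells. The member of deligated 2 held 1 Foxp3, 4 Ikzf2 and 1 Tnfrsf18 UMIs among 2467. Other regulatory genes were wider than Foxp3: Ikzf2, which encodes Helios, was found in 24.6% of members, Tnfrsf4 in 21.1% and Ctla4 in 17.5%.

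Il17a had a UMI in 2 members, both of deligated 1. The first held 13 Il17a, 10 Il17f, 1 Ccr6 and 8 Maf UMIs. The second held 9 Il17a, 1 Il17f, 3 Ccr6 and 11 Maf UMIs. In T cells with neither coreceptor Il17a was found in 8.19% of cells, and 29.5% of those cells had a UMI of the gamma-delta gene Trdc, against 3 of 114 members.

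Tbx21, which encodes the T helper 1 factor T-bet, had a UMI in 17.5% of members and in 3.43% of endothelial cells, and after thinning in 1.75% and 0.659%. Ifng, the T helper 1 cytokine, was found in 24.6% of members and 1.61% of endothelial cells, and after thinning in 4.39% and 0.284%. Gata3, used by T helper 2 cells and by T cells in general, was found in 36.0% and 3.35%, and after thinning in 7.89% and 0.610%. Il4 was found in 1 member, and Il13 in none, which allows a share of cells with a UMI of up to 2.63% and sets no limit on cells that express the gene. The follicular genes Cxcr5, Bcl6 and Il21 were found in 2, 5 and 1 members, and the proliferation gene Mki67 in 3.

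Between deligated and homeostatic glands the members differed in early-response genes, in some residency genes, in genes with long introns and in salivary secretory RNA. The test covered 2227 genes, of which 164 or 7.36% passed an adjusted p of 0.05 (edgeR quasi-likelihood). Of these 39 were higher in deligated glands (1.75% of genes tested) and 125 lower (5.61%). In all 164 the groups did not overlap. The calls depend on single libraries: without deligated 1 or without homeostatic 2 none passed (299 and 323 genes at an unadjusted p under 0.05), without deligated 2 there were 137 and without homeostatic 1 there were 122. This limit holds for every call of this comparison below.

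Some genes of the AP-1 and immediate-early list rose. Of its 28 genes 23 were tested, 11 were higher and none lower, with a median log2 difference of 0.95 against 0.04 over all genes tested. The list also holds genes known to be induced when tissue is dissociated, and its part in the result was not tested. The 11 genes were Jun, Junb, Jund, Dusp1, Dusp2, Dusp5, Btg1, Btg2, Zfp36l2, Klf6 and Rgs2. With the mixed members left out 11 of 23 were higher, and with DESeq2 7. The summed level of the list was 1.27e+04, 1.34e+04, 5237 and 4898 CPM in members, and 9117, 1.058e+04, 4913 and 4806 CPM in CD8 T cells.

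The promoter windows of Dusp1 and Btg2 are shown, chosen because they alone among the windows of the called early genes hold the full cyclic AMP response element TGACGTCA, from 250 bases before to 50 after the start in RefSeq on GRCm38.p6. Of the 11 genes 10 had a window there, and Zfp36l2 had none. The element was searched on both strands, and capitals mark matches to it or to its core TGACG. The Dusp1 window is chr17:26508423-26508722 and the Btg2 window chr1:134079106-134079405, both on the minus strand, printed 5′ to 3′.
Dusp1: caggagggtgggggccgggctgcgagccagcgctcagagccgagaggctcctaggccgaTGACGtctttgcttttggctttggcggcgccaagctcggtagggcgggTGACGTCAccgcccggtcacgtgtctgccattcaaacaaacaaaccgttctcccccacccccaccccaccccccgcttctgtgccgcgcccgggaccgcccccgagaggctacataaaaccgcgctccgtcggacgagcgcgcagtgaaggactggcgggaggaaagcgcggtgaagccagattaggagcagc
Btg2: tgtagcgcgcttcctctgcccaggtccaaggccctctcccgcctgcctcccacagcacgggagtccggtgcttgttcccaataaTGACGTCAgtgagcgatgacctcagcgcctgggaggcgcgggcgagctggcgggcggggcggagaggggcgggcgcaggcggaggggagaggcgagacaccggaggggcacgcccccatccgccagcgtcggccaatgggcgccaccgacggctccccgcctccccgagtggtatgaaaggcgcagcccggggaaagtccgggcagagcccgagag
The full element was in 2 of the 10 windows, in 3.89% of the tested genes and in 1.79% of all 32851 windows. Its core TGACG, which overlaps it, was in 7 of 10, in 40.0% of tested genes and in 20.8% of windows. The AP-1 letters TGANTCA were in 0 of 10, in 6.29% of tested genes and in 7.81% of windows. These matches are a description of the letters in these windows.

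Dusp1, a phosphatase that switches off MAP kinases, was at 358, 357, 17.1 and 40.8 CPM. It had a UMI in 22, 28, 1 and 3 members, and the deligated values were level with each other and far above both homeostatic ones (log2 3.49, SE 0.48, edgeR adjusted p = 9.24e-05). Its annotated interval (GRCm38, chr17:26505590-26562128) overlaps Ergic1 on the other strand. Dusp5, a phosphatase for ERK, was at 182, 208, 34.1 and 10.2 CPM, 10.2 times higher in deligated members (counting interval 3.34 to 50.4). It passed with edgeR (log2 3.31, adjusted p = 0.00181) and did not pass with DESeq2 (0.0568). Dusp2, a phosphatase of activated lymphocytes, was at 456, 603, 137 and 163 CPM (log2 1.83, SE 0.33, edgeR adjusted p = 0.00124).

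Transcription factor subunits of AP-1 rose with them. Junb was at 1105, 1760, 427 and 316 CPM (log2 2.02, SE 0.28, edgeR adjusted p = 0.000113). Jun was at 410, 598, 85.3 and 174 CPM (log2 1.90, SE 0.36, edgeR adjusted p = 0.00241). Fos, their partner, was at 467, 724, 358 and 296 CPM and did not pass (log2 0.92, SE 0.29, edgeR adjusted p = 0.0658). Both deligated values of Junb and Jun were above both homeostatic values.

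Genes of quiescence and RNA decay were among the called early genes. Btg1, an antiproliferative gene that keeps T cells quiescent, was at 3812, 2205, 785 and 816 CPM (log2 1.96, SE 0.27, edgeR adjusted p = 0.000106). Btg2, its relative, was at 819, 949, 512 and 429 CPM (log2 0.97, SE 0.25, edgeR adjusted p = 0.0224), a smaller difference that also did not pass without any 1 of the 4 libraries (0.0762 to 0.519). Zfp36l2, which promotes decay of AU-rich RNAs, was at 607, 1141, 154 and 214 CPM (log2 2.23, SE 0.35, edgeR adjusted p = 0.00035). Rgs2, a regulator of G protein signals, was at 280, 154, 0 and 40.8 CPM (log2 3.10, SE 0.67, edgeR adjusted p = 0.00626).

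**Figure D4:**
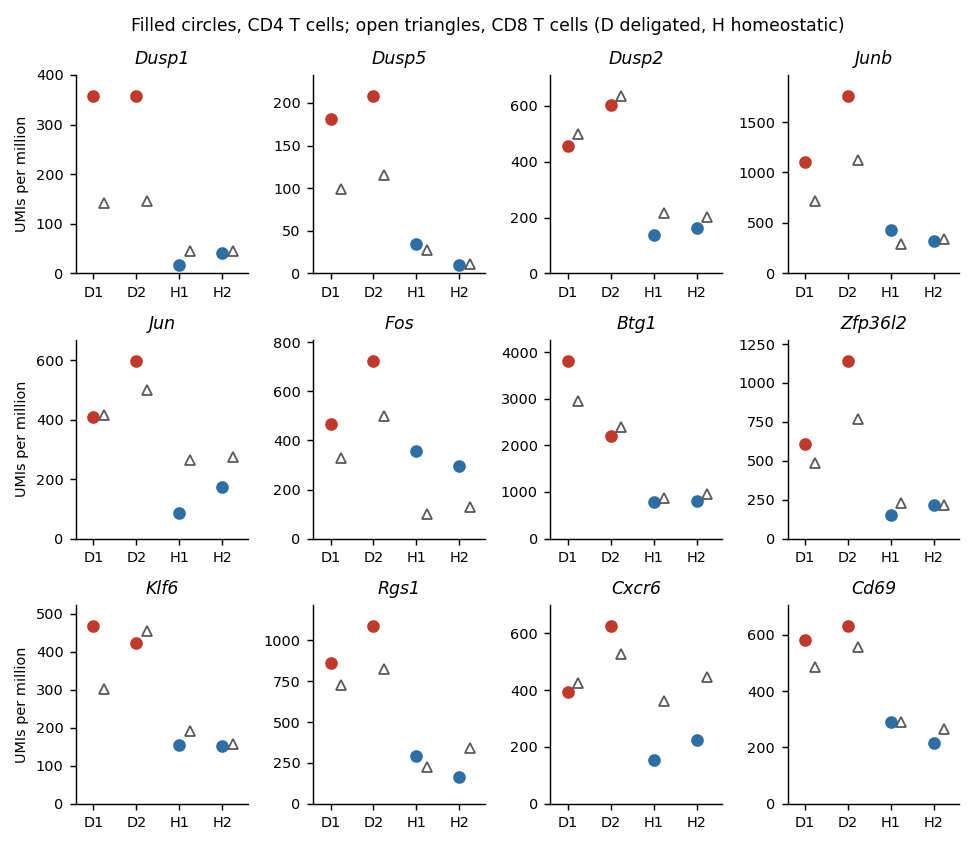
UMIs per 1000000 (CPM) of early-response and residency genes in each library, on linear axes from 0: filled circles are CD4 T cells (red deligated, blue homeostatic) and open triangles CD8 T cells. In CD4 T cells both deligated libraries lie above both homeostatic ones for every gene drawn, Fos included, which did not pass the test.

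Other stimulus lists held fewer called genes. Of 4 tested genes induced by the T cell receptor 2 were higher (Cd69 and Dusp2), while Egr1, an immediate-early factor, was at 51.9, 82.3, 119 and 71.4 CPM and did not pass. Of 6 glucocorticoid-responsive genes 2 were higher, Dusp1 and Tsc22d3, the latter at 156, 192, 85.3 and 30.6 CPM (edgeR adjusted p = 0.0455, and 0.0551 with the mixed members left out). Of 7 heat shock genes none was called, with a median of -0.12. Of 24 tested genes of the interferon list none was called, with a median of 0.22 and with Isg15 at 31.1, 263, 119 and 61.2 CPM. Ifitm2 and Ifitm3, named below as higher, are not in that list.

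Some residency genes rose in the deligated members. Of 11 tested genes of the list 4 were higher (Cxcr6, Cd69, Rgs1 and Rgs2) and none lower, with a median of 0.33. Rgs1 (GRCm38, chr1:144242296-144249242), which dampens chemokine receptor signals, was at 861, 1086, 290 and 163 CPM (log2 2.21, SE 0.30, edgeR adjusted p = 9.01e-05). Cxcr6 (chr9:123806475-123811760) was at 394, 625, 154 and 225 CPM (log2 1.41, SE 0.34, edgeR adjusted p = 0.0122), a call that did not pass with DESeq2 (0.116) or without any 1 of the 4 libraries (0.0525 to 0.507). Cd69, which holds S1PR1 inside the cell, was at 581, 631, 290 and 214 CPM (log2 1.34, SE 0.29, edgeR adjusted p = 0.00572). With DESeq2 Cd69 and Rgs2 did not pass either (0.0721 and 0.0562), and Rgs1 did (2.94e-05). The share of members with an Rgs1 UMI was 70.7, 80.5, 42.9 and 27.8%, and 39.0, 56.1, 28.6 and 5.56% after thinning, with both deligated shares above both homeostatic ones. For Cxcr6 the shares overlapped between groups at 53.7, 73.2, 42.9 and 61.1%, and were 29.3, 48.8, 21.4 and 22.2% after thinning.

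Klf2 rose along with the residency genes, at 902, 516, 188 and 204 CPM (log2 1.89, SE 0.34, edgeR adjusted p = 0.00149). It was the 1 higher gene among 10 tested recirculation genes. Bach2, a repressor that preserves naive and memory cells, was the 1 lower, at 15.6, 0, 205 and 194 CPM, with 3 UMIs over both deligated libraries. Bach2 spans 337 kb of intron and did not pass with the trend on intron length removed (edgeR adjusted p = 0.0802).

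Helper subset lists showed no call in this comparison apart from Tox. None of 6 regulatory, 6 T helper 1, 1 T helper 2 or 4 T helper 17 genes passed, with medians of 0.36, 0.07, 0.62 and 1.01. Of 5 follicular genes Tox was lower, at 88.2, 76.8, 205 and 347 CPM, over 298 kb of intron (edgeR adjusted p = 0.997 with the intron trend removed). None of 7 tested cytokine genes passed, and Cd40lg had overlapping ranges in deligated (154 and 233 CPM) and homeostatic members (174 and 307 CPM).

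Genes with the largest increases included RNA that is abundant in vessels. Ifitm3, an antiviral membrane protein, was at 104, 444, 34.1 and 10.2 CPM, 14.1 times higher in deligated members (counting interval 4.67 to 69.3). Igfbp7, a secreted vessel protein, was at 125, 603, 34.1 and 30.6 CPM (log2 3.49, SE 0.75, edgeR adjusted p = 0.00615). Both were highest in deligated 2, the library with 12 mixed members, and neither passed without it (0.362 and 0.237). With the mixed members left out Ifitm3, Igfbp7, Ifitm2, Neurl3 and Trim35 fell below the filter on low counts. In endothelial cells Ifitm3 was at 1815 to 2206 CPM and Igfbp7 at 5961 to 8241. Ifitm2 was higher by 2.97 and Neurl3, an E3 ligase gene, had 15, 41, 1 and 2 UMIs. Trim35 had 15, 14, 0 and 1 UMIs, 12.1 times higher (interval 2.01 to 494), and passed with edgeR (adjusted p = 0.0354) but not with DESeq2 (0.487). In endothelial cells Ifitm2 was at 986 to 1107 CPM. Neurl3 was there at 20.3 to 37.4 CPM, below the 77.8 and 225 CPM of deligated members. Trim35 was at 63.6 to 80.7 CPM in endothelial cells, against 77.8 and 76.8 CPM in deligated members.

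Some signalling genes of the T cell receptor were lower in deligated members, and those named here carry between 122 and 287 kb of intron. Of 21 tested genes 6 were lower, among them Fyn, Skap1, Themis and Prkcq, and none higher, with a median of -0.40. Themis, a receptor signalling adaptor, was at 88.2, 137, 665 and 388 CPM (log2 -2.12, SE 0.35, edgeR adjusted p = 0.000513), and CD8 T cells had 147, 129, 618 and 447. Skap1, an adhesion adaptor, was at 348, 378, 1382 and 1153 CPM (log2 -1.74, SE 0.24, edgeR adjusted p = 0.000106). With the trend on intron length removed 0 of the 21 were called, and Skap1 had an edgeR adjusted p of 0.994.

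The same relation to intron length ran through the whole table. Of 293 tested genes with over 100 kb of intron 92 were lower and 0 higher, or 31.4%, with a median log2 difference of -1.14. Of 853 genes with at most 10 kb 31 were higher and 11 lower, or 4.92%, with a median of 0.18. Genes with over 100 kb of intron made up 3.97, 4.53, 9.32 and 8.05% of the members' UMIs. Over 2232 genes, the rule genes among them, which are not independent, Spearman's rho between intron length and the fitted log2 difference was -0.426. Between the deligated libraries rho was 0.043, and between the homeostatic libraries 0.179. These values used another measure, the plain difference of log2 CPM with a constant added, which shrinks differences of low-count genes. Their size is therefore not directly comparable with that of the group value. Cell Ranger version goes with the group, and its part in the result cannot be told apart from that of the surgery. With the trend removed 58 genes passed, 29 in each direction.

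**Figure D5:**
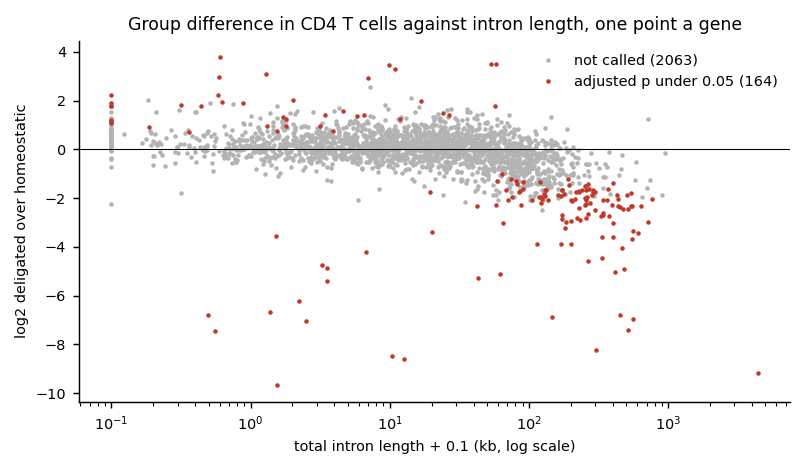
Log2 difference between deligated and homeostatic CD4 T cells against total intron length plus 0.1 kb, on a log axis, with 1 point per tested gene and called genes in red. Genes over 100 kb have a median of -1.14 and 92 of 293 are called lower, while none is called higher.

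Cmss1, a gene with 303 kb of intron, was at 15.6, 5.48, 3668 and 3592 CPM (log2 -8.24, SE 0.37, edgeR adjusted p = 5.31e-11). CD8 T cells gave 18.1, 11.7, 3643 and 3663 CPM and endothelial cells 16.3, 15.2, 5003 and 4972, a gap of like size in both other classes. Gphn, with 455 kb of intron, had 1, 0, 23 and 42 UMIs in members. Gm20388, a transcript model that spans many other genes, had 0, 0, 39 and 47 UMIs and was at least 68.7-fold lower. Mir142hg, the host transcript of a blood-cell microRNA with a short intron, was at 31.1, 49.4, 614 and 398 CPM (log2 -3.54, SE 0.40, edgeR adjusted p = 1.31e-05).

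Salivary secretory transcripts were lower in the deligated members. Of 5 tested genes of the list 5 were lower (Dcpp3, Klk1, Klk1b26, Prol1 and Pip), with a median of -6.20. The list summed to 36.3, 121, 1518 and 4796 CPM in members. It summed to 36.1, 83.2, 1072 and 1568 CPM in CD8 T cells, 78.9, 318, 5467 and 6453 in NK or innate lymphoid cells and 35.0, 127, 4201 and 6476 in endothelial cells. The difference between groups was thus present in cell types that do not make these products. How much of it is free RNA of the suspension was not tested.

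Mucl2, a mucin-like secretory product, was at 109, 192, 4896 and 34170 CPM (log2 -7.02, SE 0.69, edgeR adjusted p = 2.9e-06). Prol1, a proline-rich salivary protein, was at 5.19, 0, 392.4 and 2092 CPM, and in CD8 T cells at 13.5, 12.9, 364 and 387. Scgb2b26, a secretoglobin, had 0, 0, 8 and 127 UMIs and was at least 108-fold lower, a limit that is 17.1-fold from homeostatic 1 alone. Car6, the secreted carbonic anhydrase, had 0, 0, 9 and 53 UMIs and was at least 49.5-fold lower, or 19.2-fold from homeostatic 1 alone. Homeostatic 2 was the higher homeostatic library for each of these genes. There 1 member held 342 of the 470 UMIs of the secretory list, which holds Prol1 but not Mucl2, Scgb2b26 or Car6. Scgb2b27 had 2, 1, 20 and 265 UMIs, Scgb1b27 had 6, 6, 43 and 626, and Pip had 1, 1, 6 and 74. Klk1, a kallikrein protease of duct cells, was lower by 4.73 on the log2 scale and Fxyd2, an ion pump subunit, by 4.19.

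No gene passed a test for a different response to deligation in CD4 and CD8 T cells. The test of the difference between their responses called 0 of 4318 genes (edgeR, 208 at an unadjusted p under 0.05), and DESeq2 called 0 (30 at an unadjusted p under 0.05). Dusp1 in CD8 T cells was at 142, 145, 45.1 and 45.1 CPM and Rgs1 at 729, 823, 226 and 342, with both deligated values again above both homeostatic ones. Without 1 library the count lay between 0 and 33, highest without homeostatic 1 (33) and without deligated 1 (21). A miss of the threshold with these libraries does not show that the 2 classes respond alike.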

How the data were processed

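Gene counts per barcode (UMI counts) were used as deposited. Per the file headers they come from Cell Ranger 6.0.1 (deligated) and 7.0.0 (homeostatic), and per the submitters' processing notes from Cell Ranger 6.0.1 with mm10 and Seurat for all. Strand settings are not given in the sources used here. Counts were summed over the members, or the CD8 T cells, of each library and tested with edgeR 4.0.16 (R 4.3.3): filterByExpr, TMM scaling, quasi-likelihood fit, Benjamini-Hochberg adjustment over all genes tested, threshold 0.05, two-sided. The SE is the log2 change divided by the root of F. DESeq2 1.42.0 was an alternative. Cell shares used the same test on cell numbers. With 2 libraries per group an exact permutation test cannot go below p = 0.333. The fits were tested on simulated data.

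The 12 genes of the rule are given as values only. Named genes were, among calls with at least 30 UMIs and the same direction in every library, the 10 with the largest change each way, again the largest decreases among genes with at most 10 kb of intron, and list members past the threshold with the first 3 of a list. The members and lists were chosen with earlier results of these data known. Intron lengths and coordinates are from GENCODE M21 (GRCm38), matched for 31011 of 31053 genes (99.9%), and promoters from RefSeq. For shares of cells with a UMI, cells were also thinned to 1000 UMIs, leaving out shallower cells. Intervals are exact binomial (95%) and cover counting error only, and 3 counts served as floor for a 0. Doublets were removed only by the exclusions of the rule, and a simulated-doublet score (0.8% per 1000 cells) marked 1, 2, 0 and 1 members. Members with and without Foxp3 were not compared by a test, since no library had 10 members with a Foxp3 UMI. Libraries shared 14 to 54 barcodes per pair. Some genes of the lists are not reported here.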

Additional observations from a re-analysis of the deposited data

How the results depend on the processing

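The higher share of CD4 T cells in deligated libraries kept its direction and its call with stricter cell filters, a receptor sum of at least 3, thinning, doublets left out and the immune denominator (log2 1.73 to 2.34), and without 1 library (1.85 to 2.74), but did not pass among immune cells other than macrophages (0.50, edgeR adjusted p = 0.331) and had the opposite sign among T cells only (-0.57), both chosen after seeing the data. Deligated against homeostatic calls, 164 in the report, were 36 after thinning, 68 with DESeq2, 103 without a count filter, 58 with the intron trend removed, 19 among genes with at most 10 kb of intron, and 0 to 137 without 1 library. The part of calls that were higher moved from 23.8% to 41.7% with thinning, 37.9% without a filter, 50% with the trend removed, 52.6% among short-intron genes and 36.1% without homeostatic 1. CD4 against CD8 calls, 120 in the report, were 41 after thinning (56.1% higher, against 42.5%), 65 with DESeq2, 191 without a count filter (29.8% higher) and 71 to 134 without 1 library. The test of the difference between responses gave 8 genes without a filter and 0 to 33 without 1 library. The Foxp3 share in deligated 2, 2.44%, was 0% after thinning. The thinned gene fits use the same cells with fewer UMIs, and the leave-one-out fits use fewer cells and UMIs. The cause of the other moves was not tested. Leaving out mixed members was chosen after seeing the data: 144 calls were left, of which 116 were shared with the report.

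Of the genes named by size of change, no value over the alternatives reversed. In deligated against homeostatic 246 values kept their call and 61 no longer passed, and in CD4 against CD8 195 and 16. With the replicate block (replicate number as a covariate) the share ratio was 2.29 and 222 genes passed (58 higher, 164 lower). Same-numbered libraries hardly deviated together (correlation 0.022 over 2227 genes), and with 2 pairs the numbers do not pair the libraries. Members held 58617 to 192819 UMIs per library, which limits calls among genes of low level.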

Other observations

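Surface and survival genes outside the subset lists also separated CD4 from CD8 T cells. Ifi27l2a, an interferon-inducible gene of naive and memory T cells, was at 1535, 1316, 1587 and 1367 CPM in CD4 T cells against 561, 606, 451 and 560 in CD8 T cells (log2 1.36, SE 0.13, edgeR adjusted p = 2.16e-06), with 4 of 4 libraries in that direction. Ly6a, the Sca-1 gene, was at 482, 773, 904 and 286 CPM against 296, 372, 160 and 196 (log2 1.10, edgeR adjusted p = 0.0053). Ly6c2, a surface protein of CD8 memory cells, was lower by 1.83. Of 31 interferon genes tested 3 were higher and 1 lower, with a median of 0.28. Bcl2, the survival factor, was at 368, 170, 495 and 306 CPM against 483, 478, 701 and 692 (log2 -0.90, edgeR adjusted p = 0.00594). Of 11 MHC class I genes none was called, and H2-K1 was at 2536, 3274, 2201 and 2112 CPM in members.

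Tnf was higher in CD4 than in CD8 T cells, at 161, 181, 392.4 and 245 CPM against 78.5, 83.2, 139 and 203 (log2 0.93, edgeR adjusted p = 0.0111), and did not pass without deligated 1 (0.0519) or homeostatic 1 (0.0686). Ltb, which encodes lymphotoxin beta, did not pass, at 959, 998, 1024 and 898 CPM against 1133, 987, 1072 and 1102.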
